A study of Mus musculus with 8 samples.

Results

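The matrix proteases and their inhibitors were described in the hippocampus of young and very old mice. The rule for the genes used their names and no measured value, and it comprised every matrix metalloproteinase (MMP), every gene whose symbol begins with Adamts, and every tissue inhibitor of metalloproteinases (TIMP) for which a probe could be named. They numbered 48 of 19751 named genes and 63 of 39429 probes. They were 22 MMPs, 19 ADAMTS proteases, 3 ADAMTS-like proteins and 4 TIMPs, while Mmp27, Adamtsl3 and Adamtsl5 were not matched to a probe and were not analysed here. All mice were wild type C57BL/6J that had received no treatment and had aged in their home cage, and the full hippocampus was dissected by hand. By the study's methods the oldest mice were bought when already aged and then kept for some months in the authors' holding rooms. The age at which the young mice were bought is not given there. The 3M group held 4 samples from animals 3 months of age and the 29M group 4 samples from animals 29 months of age, with 1 single-colour array per sample. The labels do not say which animal each sample came from, so p-values measure only the spread between these samples. Young and aged samples shared each of the 3 slides used, with 3M-1, 29M-3 and 29M-4 on slide 1, 3M-2 and 29M-2 on slide 2, and 3M-3, 3M-4 and 29M-1 on slide 3.

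MMPs are zinc-dependent proteases that are made as inactive precursors, are either secreted or held at the cell surface, and cleave collagens, proteoglycans and other matrix proteins. ADAMTS proteases are secreted relatives with thrombospondin repeats. Several of them cut the lecticans, the large proteoglycans that fill the extracellular space of the brain and form the perineuronal nets around neurons. TIMPs bind the active site of these proteases, and in the brain the balance between both sides is known for its part in synaptic remodelling, vessel wall integrity and inflammation.

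Intensities are given on a normalized log2 scale, on which differences between groups, but not levels of different probes, can be compared. For dim probes it compresses a difference. Among all probes of an array 76.2% (3M-1) to 85.0% (3M-4) were well above background. Of the 63 probes considered here 40 (3M-1) to 52 (3M-4) were. The arrays of slide 1 had the lowest shares over all probes, at 76.2% (3M-1), 78.9% (29M-4) and 80.6% (29M-3). Their lowest signals well above background were higher, at 5.91 to 6.21 against 5.57 to 5.82 on the other slides. Slide 1 held more aged than young arrays, and what this meant for dim probes was not tested. The 8 neuronal marker genes examined, which include Rbfox3, Snap25 and Slc17a7, were above background on all arrays. The sample of each array was taken from the link between sample and scanner file. A second deposited table, which holds local background only, pairs 7 of its 8 columns with the array of another sample, 4 of them of the other age, and which of both pairings is right was not tested. With the link used here Gfap, the intermediate filament of astrocytes, was higher in 29M by 0.71 on the log2 scale (adjusted p = 0.021 in limma), and by 0.45, 0.72 and 0.87 within slides 1, 2 and 3. The study also reports an increase of this gene with age.

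Only a few of these genes were called different with age. A gene was called when a probe had an adjusted p under 0.1 (limma, adjusted over all probes) and a log2 change of at least 0.5. Higher in 29M by this rule were Mmp3 and Timp1, 2 of 48 genes (4.17%), where 1.80% of 19742 tested genes were called. Lower was Mmp7, 1 of 48 (2.08%), where 0.856% of all genes were called. The remaining 45 genes were not called, which with 4 arrays per group does not show that they were unchanged. The log2 changes, each from the brightest probe of a gene, ranged from -0.65 to 1.79 with a median of -0.02 (23 positive, 25 negative), against a median of 0.01 over all named genes. Their median size without regard to sign was 0.158, against 0.118 over all genes, and 33 of the 48 changes were under 0.25 in size. The plot of all changes by role shows Mmp3 and Timp1 far to the right and most genes close to 0.

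**Figure D1:**
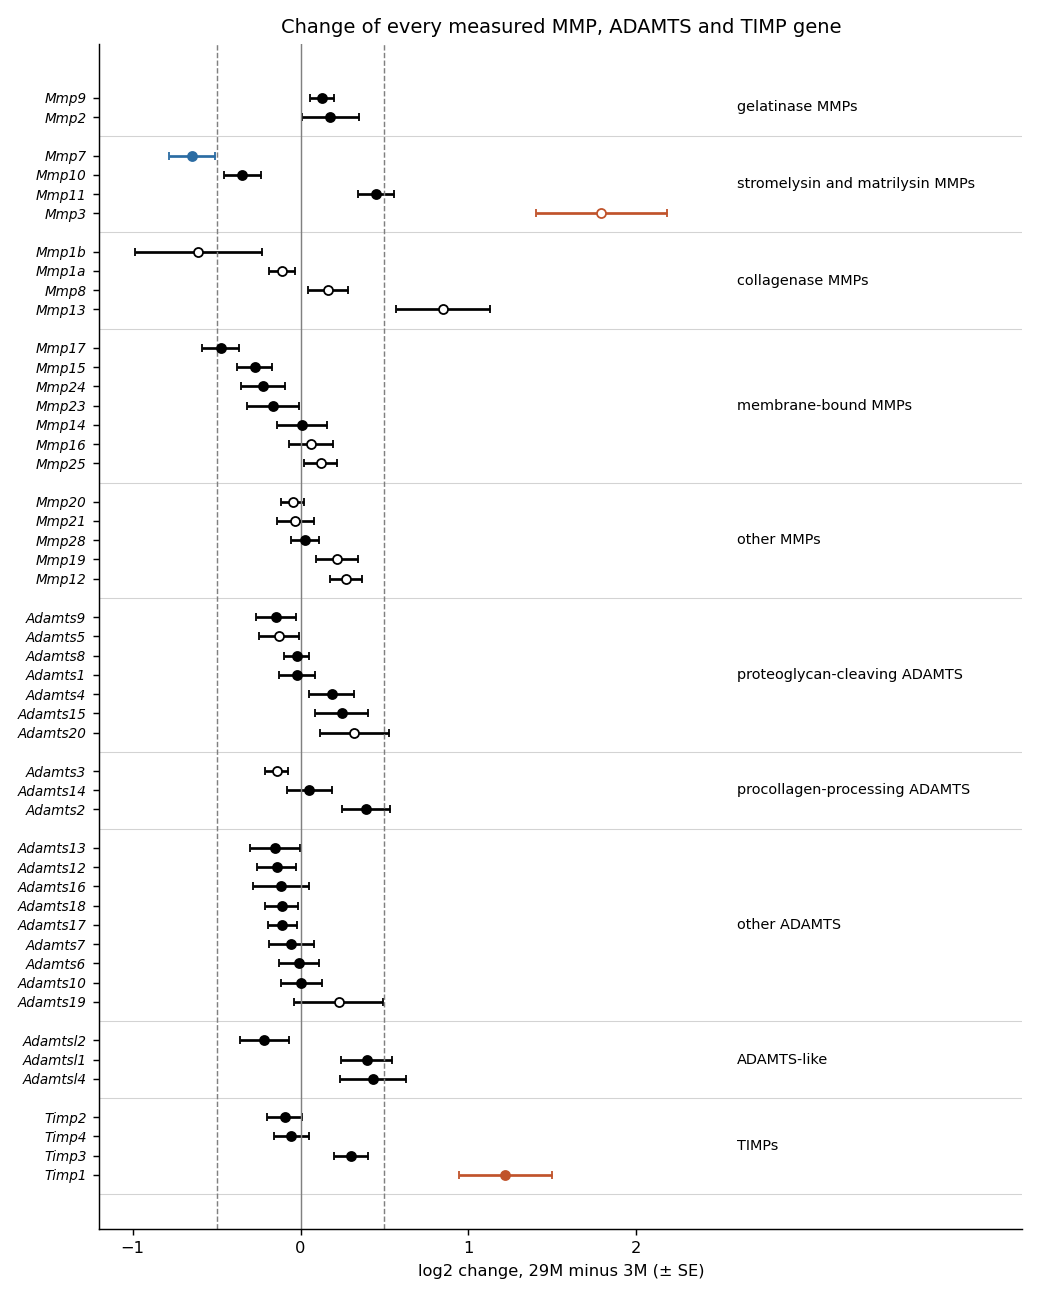
Change in log2 intensity from 3M to 29M (horizontal axis, 29M minus 3M, with SE from limma, 4 arrays per group) of the brightest probe of each of the 48 genes, grouped by role. Orange marks the called higher genes Mmp3 and Timp1, blue the called lower gene Mmp7, open circles the 15 genes not above background on every array of either group, and dashed lines a change of 0.5.

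At an unadjusted p under 0.05, 8 of 48 genes were higher (Mmp3, Mmp11, Mmp12, Mmp13, Adamts2, Adamtsl1, Timp1 and Timp3), where 9.47% of all genes were. On the same terms 4 of 48 were lower (Mmp7, Mmp10, Mmp15 and Mmp17), where 7.87% of all genes were. All arrays of 29M lay above all arrays of 3M for 3 of 48 genes (Timp1, Mmp11 and Timp3), where this held for 6.27% of all genes. The reverse held for 4 of 48 genes (Mmp7, Mmp10, Mmp17 and Adamts3), where it held for 5.24% of all genes. As shares of the 48 genes these counts were 16.7%, 8.33%, 6.25% and 8.33%, of which the second and the third were close to their backgrounds.

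**Figure D2:**
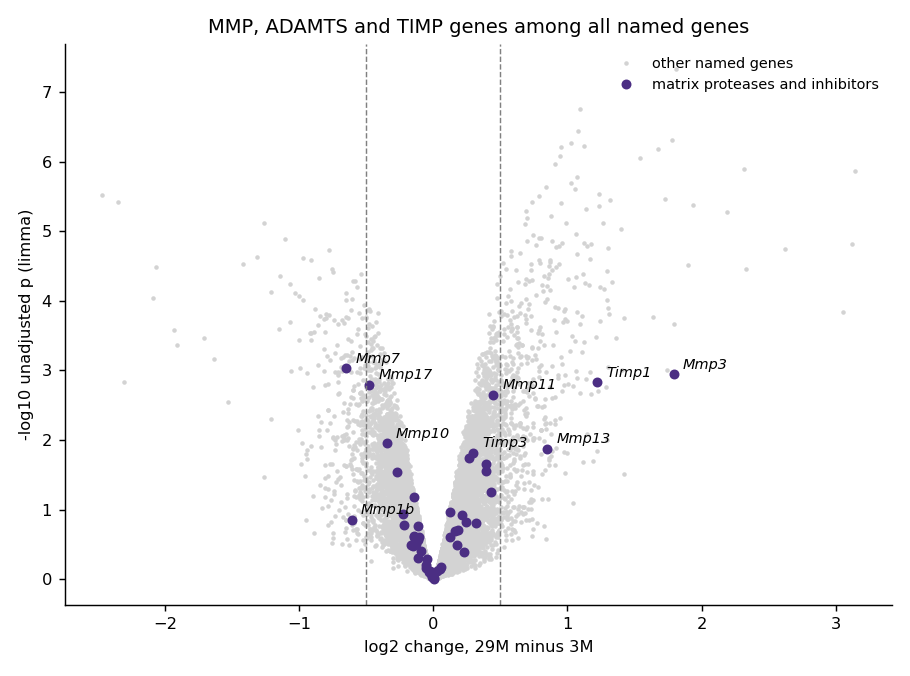
Log2 change from 3M to 29M (horizontal axis) against -log10 of the unadjusted limma p (vertical axis) for the brightest probe of each named gene, with the 48 matrix protease and inhibitor genes in purple and all other genes in grey. Mmp3, Timp1, Mmp7 and Mmp13 stand outside the dashed lines at a change of 0.5, as does Mmp1b, whose p was 0.139.

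Since the called genes Mmp3 and Mmp7 lie in a single run of MMP genes, and Timp1 elsewhere, the 250 bases before their annotated starts are shown. Mmp13, the other gene of the run that differed at an unadjusted p under 0.05 and by more than 0.5, is shown with them. The sequences are from RefSeq, build GRCm38.p6, and all lie on the plus strand, at chr9:7445572-7445821 (Mmp3), chrX:20869916-20870165 (Timp1), chr9:7691840-7692089 (Mmp7) and chr9:7272264-7272513 (Mmp13). Capitals mark matches on either strand to TGANTCA, a loose form of the site bound by AP-1 factors such as Fos and Jun. They also mark TATAAA, a form of the TATA box. N stands for any base, so a match to TGANTCA need not be an AP-1 site.
Mmp3: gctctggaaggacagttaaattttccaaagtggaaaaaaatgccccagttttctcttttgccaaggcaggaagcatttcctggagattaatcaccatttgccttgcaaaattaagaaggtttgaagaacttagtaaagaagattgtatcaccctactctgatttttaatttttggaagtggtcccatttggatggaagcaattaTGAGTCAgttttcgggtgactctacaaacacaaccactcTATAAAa
Timp1: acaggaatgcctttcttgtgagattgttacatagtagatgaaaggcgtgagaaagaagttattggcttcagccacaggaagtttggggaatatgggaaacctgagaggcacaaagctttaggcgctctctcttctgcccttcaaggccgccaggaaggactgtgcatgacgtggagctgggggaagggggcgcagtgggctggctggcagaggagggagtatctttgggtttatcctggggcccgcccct
Mmp7: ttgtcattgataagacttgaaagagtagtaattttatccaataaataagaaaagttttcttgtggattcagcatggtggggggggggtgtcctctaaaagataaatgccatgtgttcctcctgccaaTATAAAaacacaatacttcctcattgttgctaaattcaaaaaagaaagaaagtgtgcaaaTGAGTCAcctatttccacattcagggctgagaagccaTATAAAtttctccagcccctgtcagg
Mmp13: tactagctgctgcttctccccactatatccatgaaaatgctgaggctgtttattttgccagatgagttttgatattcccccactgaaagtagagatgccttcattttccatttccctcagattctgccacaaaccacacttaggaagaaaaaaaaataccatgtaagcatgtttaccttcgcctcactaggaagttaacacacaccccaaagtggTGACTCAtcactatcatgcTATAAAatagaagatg

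The run on chromosome 9 holds, in this order, Mmp13, Mmp12, Mmp1b, Mmp3, Mmp1a, Mmp10, Mmp8, Mmp27, Mmp20 and Mmp7. TGANTCA was present before the start of 8 of these 10 genes, with Mmp8 and Mmp27 as the exceptions, and before 0 of the other 26 member genes with a sequence. It was present in 6.75% of 32851 windows of all genes. TATAAA was found in 7 of the 10 genes of the run and in 3 of the other 26, and in 12.4% of all windows. The AP-1 letters began 46 bases before the start of Mmp3, 63 before that of Mmp7 and 35 before that of Mmp13. Timp1 had neither motif in this window, nor had a second listed start of Mmp7. These matches describe the letters only, and the genes of the run differed in sign. Its 9 measured genes had log2 changes of 1.79 (Mmp3), 0.85 (Mmp13), 0.27 (Mmp12), 0.16 (Mmp8), -0.05 (Mmp20), -0.11 (Mmp1a), -0.35 (Mmp10), -0.61 (Mmp1b) and -0.65 (Mmp7), and genes on both sides of 0 carried the same letters. Of these 9 only Mmp7 and Mmp10 were above background on every array of a group, so most of the signs rest on dim probes.

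Mmp3, or stromelysin-1, cleaves a wide range of matrix proteins and activates the precursors of other MMPs. Its probe read 6.20, 5.39, 5.40 and 5.38 in 3M-1 to 3M-4, and 7.57, 8.08, 7.78 and 6.11 in 29M-1 to 29M-4. It was not well above background in any 3M array, and was so in 3 of 4 arrays of 29M. The arrays 29M-1 to 29M-3 stood far above all of 3M, while 29M-4 lay just below 3M-1, so that the groups overlapped. The log2 change was 1.79 (SE 0.39, adjusted p = 0.059 in limma). Since no 3M array was well above background, the group means gave a bound, 2.91-fold higher in 29M. This bound carries no sampling error, and the change on slide 1 lay below it. Within slides the change was 0.75, 2.68 and 2.18 on slides 1, 2 and 3. The call was lost with slide as a fixed block (1.80, adjusted p = 0.125) and whenever 3M-2, 3M-3, 3M-4, 29M-1, 29M-2 or 29M-3 was left out (1.56 to 1.73, adjusted p from 0.112 to 0.159), and without 29M-4 the change was 2.22 (adjusted p = 0.0072). On background-subtracted signals scaled to the 75th percentile of each array the change was 4.08, and after background correction and quantile normalization it was 1.36. The size thus depended strongly on how dim signals were treated.

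Timp1, a secreted inhibitor of most MMPs that binds the precursor of Mmp9, read 8.18, 7.91, 8.31 and 7.67 in the 3M arrays and 9.24, 9.47, 9.84 and 8.40 in the 29M arrays. Every aged array lay above every young array, although 29M-4 exceeded 3M-3 by little. The log2 change of 1.22 (SE 0.28, adjusted p = 0.066 in limma) corresponded to 2.33-fold, and all 8 arrays were above background. On the slides it was 0.94, 1.56 and 1.25. The call was lost with slide as a fixed block (1.22, adjusted p = 0.139), after scaling of processed signals to the 75th percentile (1.39, limma adjusted p = 0.150) and without 3M-2, 3M-3, 3M-4, 29M-1, 29M-2 or 29M-3 (1.02 to 1.32, adjusted p from 0.106 to 0.174). Without 29M-4 it was 1.50 (adjusted p = 0.0145). For both Mmp3 and Timp1, 29M-4 was the lowest of the aged arrays.

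Mmp7, or matrilysin, is among the smallest MMPs and lacks the hemopexin domain that most others carry. It read 7.43, 6.98, 6.92 and 6.92 in 3M and 6.40, 6.20, 6.64 and 6.42 in 29M, and was above background on all arrays. No aged array reached the lowest young one, and 3M-1 stood above the other young arrays. The log2 change was -0.65 (SE 0.14, adjusted p = 0.053 in limma), or 1.57-fold lower in 29M. It was -0.90, -0.78 and -0.52 within slides, and the call held with slide as a fixed block (-0.73, adjusted p = 0.033). It was lost after background correction and quantile normalization, where the change reached only -0.50 (rounded from just under the threshold in size), and without 3M-2, 29M-1, 29M-2 or 29M-4 (-0.67 to -0.58, adjusted p from 0.124 to 0.145). A block for replicate number also lost the call (-0.65, adjusted p = 0.134 in limma). Without 3M-1 the change was -0.53 (adjusted p = 0.034).

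**Figure D3:**
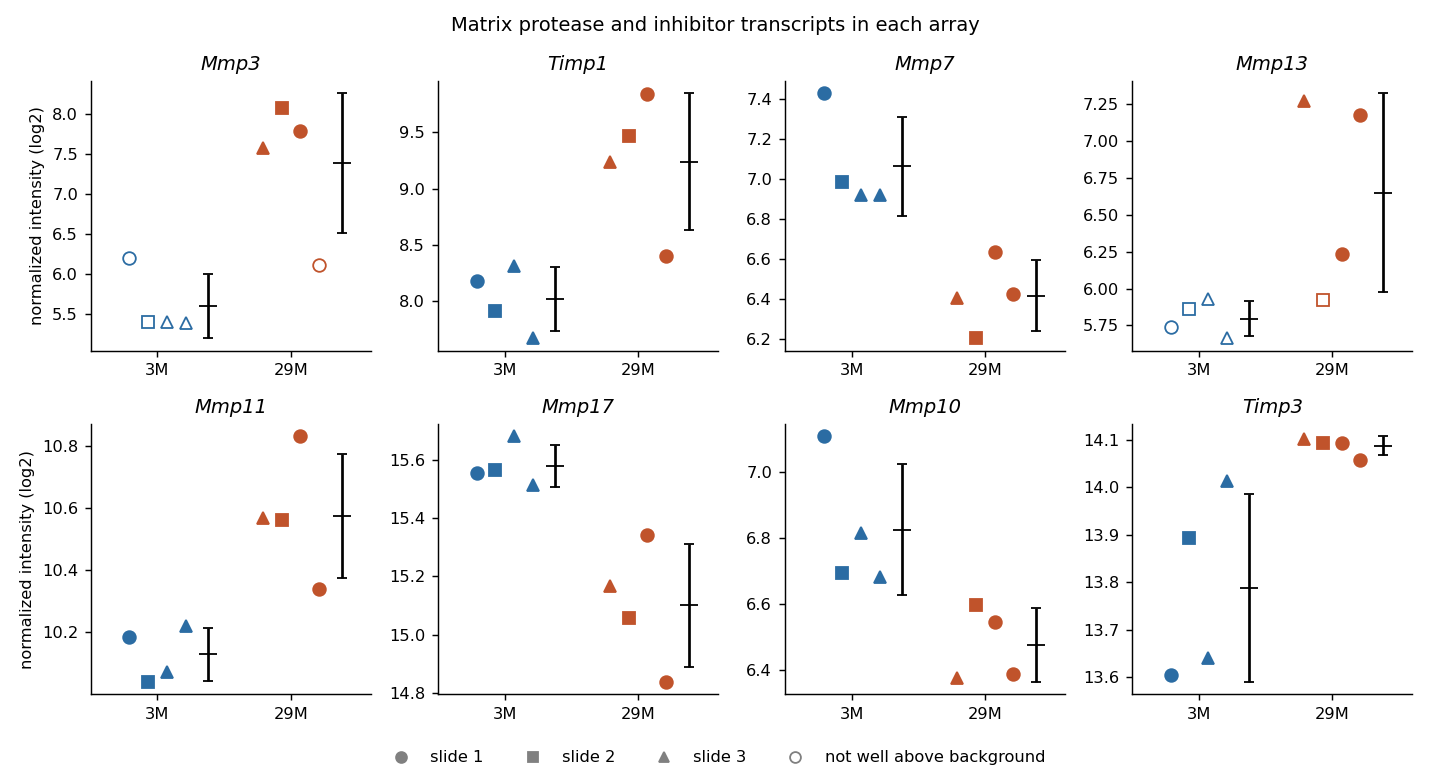
Normalized log2 intensity (vertical axis, scaled separately in each panel) of 8 genes in each of the 4 arrays of 3M (blue) and 29M (orange), with the symbol giving the slide, open symbols for values not well above background, and black bars for mean and SD. In Timp1, Mmp11 and Timp3 all 29M arrays are above all 3M arrays, in Mmp7, Mmp17 and Mmp10 all are below, and in Mmp3 and Mmp13 the groups overlap.

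The other stromelysins were not called, and their differences were smaller. Mmp11, or stromelysin-3, which is activated by furin inside the cell, read 10.18, 10.04, 10.07 and 10.22 in 3M and 10.57, 10.56, 10.83 and 10.34 in 29M. The groups did not overlap, and the log2 change was 0.45 (SE 0.11, adjusted p = 0.079 in limma), short of the fold threshold. It passed when 29M-4 was left out (0.52, adjusted p = 0.061). A second Mmp11 probe had a difference of 0.46 (adjusted p = 0.191), with overlapping groups. Mmp10, or stromelysin-2, a close relative of Mmp3, read 7.11, 6.70, 6.82 and 6.68 in 3M and 6.38, 6.60, 6.55 and 6.39 in 29M. These groups did not overlap either, and the difference of -0.35 (SE 0.11, adjusted p = 0.158) had the opposite sign to that of Mmp3. In Mmp10 as in Mmp3 and Mmp7 the highest young array was 3M-1, which also had the lowest share of probes above background. This array was on slide 1, where all shares were lower than elsewhere, and the part of this in the results was not tested.

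The collagenases, which open the triple helix of fibrillar collagen, were at the edge of detection. None of the 4 was above background on every array of a group. Mmp13, or collagenase-3, read 5.74, 5.86, 5.93 and 5.66 in 3M, all of them not well above background, and 7.27, 5.92, 6.23 and 7.17 in 29M, of which 29M-2 was not. The 29M arrays were spread over more than a log2 unit, with 29M-1 and 29M-4 high and 29M-2 within the young range. The log2 change was 0.85 (SE 0.28, adjusted p = 0.170 in limma). As a bound the group means gave 1.66-fold higher in 29M, without sampling error, and the change on slide 2 lay below it. On slides 1, 2 and 3 the change was 0.96, 0.06 and 1.47. It was 2.10 on signals scaled to the 75th percentile and 0.67 after background correction and quantile normalization. The array 29M-4, lowest in Mmp3 among the aged arrays, was among the highest in Mmp13. Mmp1b, a rodent counterpart of interstitial collagenase, had a log2 difference of -0.61 (adjusted p = 0.454 in limma), and only 3M-4, at 7.61, was above background. The differences of Mmp1a and Mmp8 were -0.11 and 0.16.

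The gelatinases Mmp2 and Mmp9, which digest denatured collagen and basement membrane and have been studied most in the brain, did not differ detectably. Mmp2 read 8.60, 9.14, 8.59 and 9.17 in 3M and 9.40, 8.92, 9.01 and 8.89 in 29M, a log2 change of 0.18 (SE 0.17, adjusted p = 0.646 in limma) with a negative value on slide 2 (-0.22). Mmp9 read 7.02, 7.11, 7.21 and 7.11 in 3M and 7.21, 7.25, 7.28 and 7.23 in 29M. Its aged arrays lay close together, with 29M-1 just below the highest young array and the other 3 above it, and the change was 0.13 (SE 0.07, adjusted p = 0.411).

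Among the 7 membrane-bound MMPs none was called. Mmp17 (MT4-MMP), which is tied to the membrane by a lipid anchor, read 15.55, 15.57, 15.68 and 15.51 in 3M and 15.17, 15.06, 15.34 and 14.84 in 29M. Every aged array lay below every young one, and the log2 change of -0.48 (SE 0.11, adjusted p = 0.068 in limma) passed the p threshold but not the fold threshold. It was -0.46, -0.51 and -0.43 within slides, and it was called without 29M-3 (-0.56, adjusted p = 0.048). Mmp24 (MT5-MMP), the membrane-type MMP best known from neurons, gave a similar picture on its second probe, chosen for mention after its values were seen. That probe read 8.35, 8.38, 8.53 and 8.23 in 3M and 7.92, 7.91, 8.06 and 7.76 in 29M, without overlap. Its change was -0.46 (SE 0.09, adjusted p = 0.047), and it was called without 3M-4 and without 29M-3. The difference of the brighter Mmp24 probe was -0.22 (adjusted p = 0.420).

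Mmp15 (MT2-MMP) read 9.88, 9.93, 9.60 and 9.99 in 3M and 9.68, 9.47, 9.69 and 9.47 in 29M. Only 3M-3 overlapped with the aged arrays, and the change was -0.27 (SE 0.11, adjusted p = 0.230 in limma). Mmp14 (MT1-MMP), the surface activator of Mmp2, read 8.98, 9.28, 9.08 and 9.27 in 3M and 9.39, 9.15, 9.36 and 8.74 in 29M. The groups overlapped throughout, and its change of 0.01 (SE 0.15) turned negative under each of the 3 other normalizations. Of the rest, the log2 difference was -0.16 for Mmp23, 0.06 for Mmp16 and 0.12 for Mmp25, the last with a probe above background on no array.

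Mmp12, the macrophage elastase, read 5.86, 5.94, 5.96 and 6.08 in 3M and 6.18, 6.39, 6.30 and 6.04 in 29M. It was above background on 1 young and 3 aged arrays, with 29M-4 just below 3M-4. The change was 0.27 (SE 0.09, adjusted p = 0.193 in limma), 0.84 on signals scaled to the 75th percentile and 0.16 after background correction and quantile normalization. It was -0.01 on the second Mmp12 probe, which was above background nowhere. The remaining MMPs and their log2 differences were Mmp19 (0.21), Mmp28 (0.03), Mmp21 (-0.03) and the enamel protease Mmp20 (-0.05). The last of these, like Mmp21, was above background on no array.

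**Figure D4:**
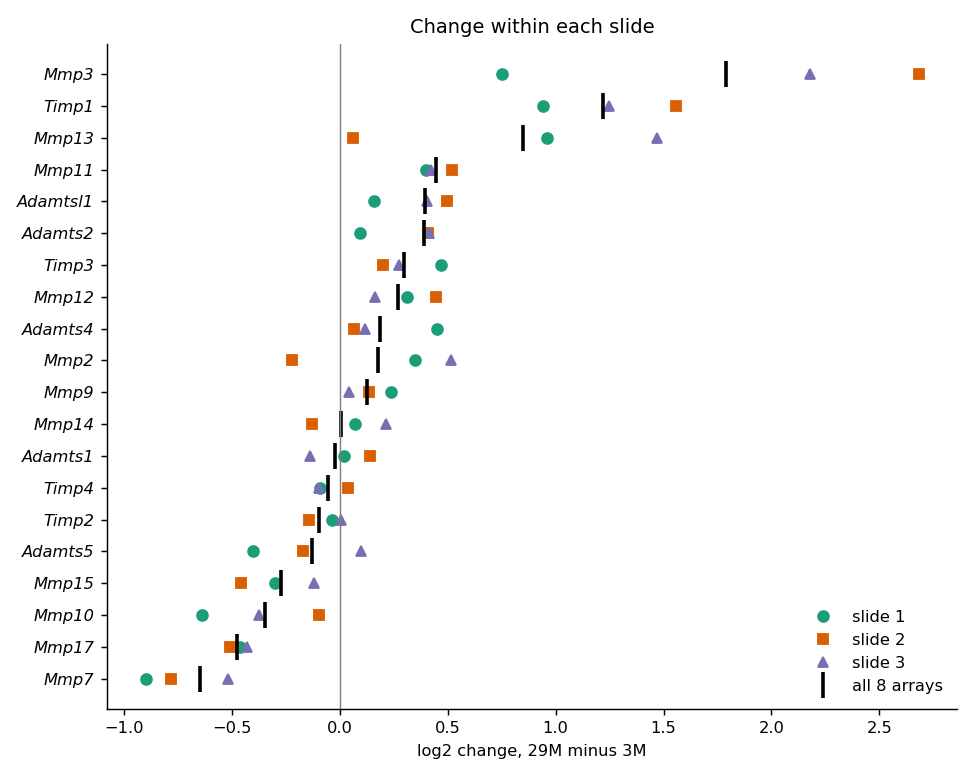
Log2 change from 3M to 29M (horizontal axis) within slide 1, 2 and 3 (circle, square, triangle) and over all 8 arrays (black line) for 20 genes. Mmp3, Timp1, Mmp11, Mmp7 and Mmp17 keep their sign on all 3 slides, whereas Mmp2, Mmp14, Adamts1, Adamts5, Timp2 and Timp4 change sign between slides.

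Of the 19 ADAMTS genes 0 were called, and their log2 changes ran from -0.15 to 0.39 (7 positive, 12 negative, median -0.02). At an unadjusted p under 0.05, Adamts2 alone passed. The proteoglycan-cleaving group covers the enzymes that cut aggrecan, brevican and versican. Adamts4, an aggrecanase of glia, read 10.89, 11.40, 10.99 and 11.47 in 3M and 11.34, 11.46, 11.35 and 11.33 in 29M, a change of 0.19 (SE 0.13, adjusted p = 0.524 in limma). The young arrays fell into a high and a low pair, and the aged ones lay inside their range. Adamts5, the other main aggrecanase, read 6.51, 6.26, 5.94 and 6.35 in 3M and 6.24, 6.09, 6.11 and 6.11 in 29M, close to background and with a change of -0.13 (SE 0.12, adjusted p = 0.630). Adamts1 read 11.23, 11.21, 11.29 and 11.42 in 3M and 11.21, 11.35, 11.47 and 11.03 in 29M. Its change of -0.02 (SE 0.11) was within the spread of either group, and its sign turned under 2 of the 3 other normalizations. The log2 differences of Adamts8, Adamts9, Adamts15 and Adamts20 were -0.02, -0.15, 0.25 and 0.32.

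Of the procollagen-processing group, Adamts2, which trims the amino end of fibrillar procollagens, read 9.66, 9.20, 9.24 and 8.99 in 3M and 9.53, 9.61, 9.88 and 9.63 in 29M. Only 3M-1 reached into the aged range, and the change was 0.39 (SE 0.14, adjusted p = 0.208 in limma). It was called when 3M-1 was left out (0.52, adjusted p = 0.038), but the difference of a second, dimmer probe was -0.10. The differences of Adamts3 and Adamts14 were -0.14 and 0.05, the former without overlap between groups and close to background. The other 9 ADAMTS genes, among them Adamts13, which cuts von Willebrand factor, ranged from -0.15 to 0.23, with 7 of 9 negative. ADAMTS-like proteins resemble ADAMTS proteases but have no protease domain. Adamtsl1 read 11.12, 10.84, 10.49 and 11.02 in 3M and 11.15, 11.34, 11.51 and 11.04 in 29M, and 29M-4 fell below 3M-1. The log2 difference was 0.40 (SE 0.15, adjusted p = 0.227) on this probe and -0.01 on the other. Adamtsl4, which binds fibrillin microfibrils, had a difference of 0.43 (adjusted p = 0.308) and Adamtsl2 one of -0.22.

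The remaining inhibitors did not follow Timp1 past the thresholds. Timp3, which is bound to the matrix and also inhibits ADAM and ADAMTS enzymes, read 13.60, 13.89, 13.64 and 14.01 in 3M and 14.10, 14.09, 14.09 and 14.06 in 29M. The groups did not overlap because the aged arrays were nearly equal and lay just above the highest young array. The change was 0.30 (SE 0.10, adjusted p = 0.179 in limma). Timp2, which inhibits Mmp2 and takes part in its activation by Mmp14, read 15.85, 16.22, 16.02 and 16.02 in 3M and 16.02, 16.07, 15.77 and 15.86 in 29M, a change of -0.09 (SE 0.10, adjusted p = 0.696). Its second probe, with the spot of 29M-2 left out as an outlier, gave 0.33 (adjusted p = 0.325), so that the probes differed in sign. Timp4 read 12.89, 12.78, 13.09 and 12.64 in 3M and 12.77, 12.82, 12.91 and 12.70 in 29M, with a change of -0.05 (SE 0.10, adjusted p = 0.841). Over all 15 genes with at least 2 probes, the probes of 8 had the same sign.

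Among genes that activate or regulate these proteases, Thbs2, a matrix protein that binds MMPs, rose from 8.83 ± 0.35 to 9.52 ± 0.15 (SD, n = 4 each), a log2 change of 0.69 (adjusted p = 0.0751 in limma), and 0 of the genes examined were called lower. Of 16 genes of lecticans, their link proteins, hyaluronan synthases and other perineuronal net and matrix components, 1 was called higher and 0 lower, with a median change of 0.02. It was Hapln2, a link protein of the nodes of Ranvier, which rose from 10.07 ± 0.21 to 11.06 ± 0.11, by 0.99 (adjusted p = 0.0047). The lectican Ncan, named after its values were seen, had a log2 difference of -0.45 (adjusted p = 0.063 in limma), short of the fold threshold. None of 8 ADAM sheddases was called, and their changes ran from -0.53 to 0.10.

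In whole tissue, fewer cells of a type and less RNA per cell cannot be told apart. The study counted stained cells in CA1 and reports no significant difference with age for neurons, astrocytes or microglia. It also states that its marker genes of neurons and microglia were unaltered. Marker lists of cell types are given as the mean log2 difference from each gene's average over the 8 arrays. The 10 microglial genes averaged -0.24 to 0.04 in 3M and -0.04 to 0.24 in 29M, a difference of 0.26, with 8 positive and 2 negative changes. Of these genes Trem2 was called higher (0.65, adjusted p = 0.045 in limma). Perivascular macrophages (4 of 5 genes used, with Cd163 above background on no array) averaged -0.39 to -0.01 and 0.02 to 0.41, a difference of 0.38, and Cbr2 was called higher (0.51, adjusted p = 0.045). The 7 astrocyte genes averaged -0.21 to 0.01 and -0.02 to 0.14, a difference of 0.14, and Gfap was called higher (0.71, adjusted p = 0.021 in limma). Their changes were mixed in sign, 4 positive and 3 negative, with a median of 0.08. The 9 meningeal fibroblast genes averaged -0.09 to 0.02 in 3M and -0.37 to 0.44 in 29M, a difference of 0.08, with no call. The 5 genes of oligodendrocyte precursors averaged -0.13 to 0.23 and -0.31 to 0.15, a difference of -0.06. Gpr17 was called lower (-0.99, adjusted p = 0.053 in limma) and was the only one to fall, while 4 of the 5 had positive changes of up to 0.32. In all of these 5 lists 29M-4 was the lowest and 29M-3 the highest of the aged arrays, as they were for Timp1. The order was thus not particular to 1 cell type, and the lists given next shared it at most in part. Among the aged arrays, 29M-1 was highest for endothelium and for pericytes and smooth muscle, 29M-2 for oligodendrocytes and red blood cells, and 29M-4 for neurons. For choroid plexus 29M-3 was highest and 29M-2 lowest. The array 29M-4 was again lowest for endothelium (-0.04), pericytes and smooth muscle (-0.17) and red blood cells (-0.48). For oligodendrocytes 29M-1 was lowest, and for neurons 29M-2. The part of these cells in the results of Timp1 and Mmp3 was not tested. The choroid plexus list (9 genes) ranged from -0.82 in 3M-3 to 0.44 in 3M-4 and differed by 0.06 between groups. The difference was 0.17 for endothelium (7 genes) and for oligodendrocytes (6 genes), 0.02 for pericytes and smooth muscle (8 genes), 0.01 for neurons (8 genes) and -0.29 for red blood cells (4 of 5 genes used), with no call in any of these lists.

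**Figure D5:**
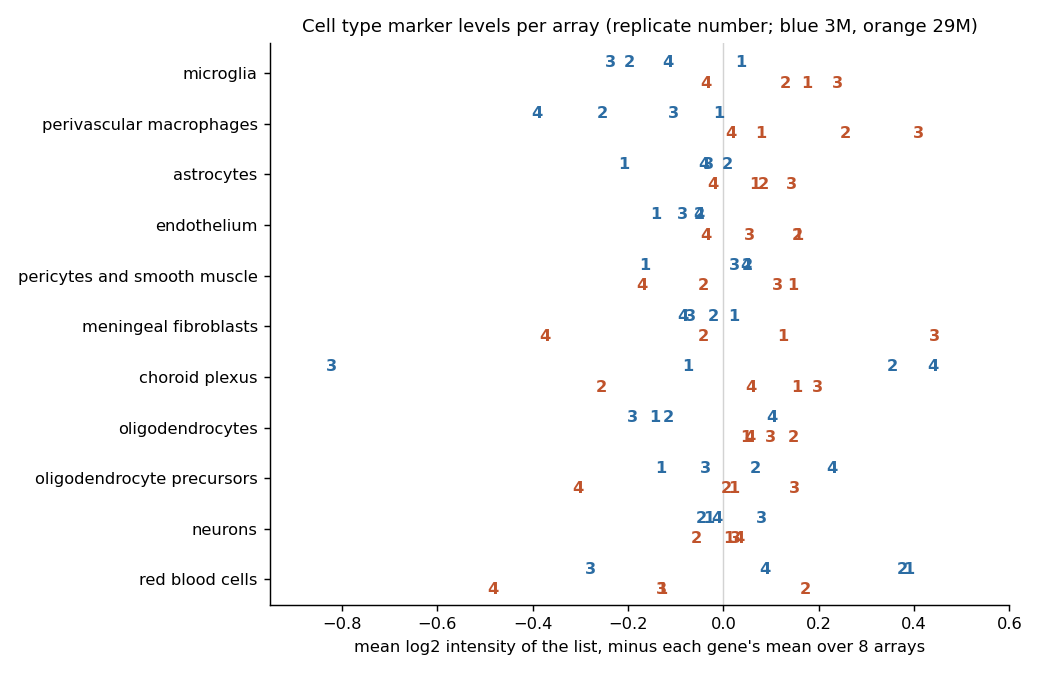
Mean log2 intensity of cell type marker lists in each array, relative to each gene's mean over the 8 arrays (horizontal axis), with replicate numbers printed in blue for 3M and orange for 29M. The microglial and perivascular macrophage lists differ by 0.26 and 0.38 between groups, the neuronal list by 0.01, and 29M-4 and 29M-3 stand apart in the meningeal list at -0.37 and 0.44.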

How the data were processed

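RNA of 8 hippocampal samples was hybridised to single-colour Agilent 4x44K arrays. The deposited scanner files hold spot intensities that the authors did not normalize between arrays. Per the file headers they were made with Agilent Feature Extraction 10.7.3.1 from a G2505C scanner for build mm9, whereas the study's methods name other versions. Control spots and outlier spots (127 to 190 per array) were left out, and median intensities were normalized by a variance stabilising model written in R 4.3.3 (trimming quantile 0.9, 7 iterations). Its calls can thus differ from those of the original package. Age was fitted in limma 3.58.1 to the 39408 probes with at least 3 usable arrays per group, with Benjamini-Hochberg adjustment over all of them and no filter on dim probes. The threshold of 0.5 is 1.414-fold. Normalization, test and thresholds follow the study's methods. The normalization and the age fit, but no other step, were tested on simulated data. The changes set there were in bright probes only and larger than most found here, so dim probes and small changes were not covered.

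Accessions named 26055 of 39429 probes (66.1%) through RefSeq genes of GRCm38.p6. The brightest probe gives a gene's printed value. Values per array are printed for called genes, genes with an unadjusted p under 0.05, the TIMPs and Mmp2, Mmp3, Mmp9, Mmp14, Mmp17, Adamts1, Adamts4 and Adamts5. A bound is the mean of the brighter group against, per array of the dimmer group, the higher of the lowest signal well above background and the probe's own. It carries no sampling error, and signals above that lowest one were not always well above background. The gene family, chosen by symbol, and the lists of markers and of related genes were picked with earlier results of these data known. The deposited value table equals mean local background to a tolerance of 0.001 and was not used. Alternatives covered normalization, outlier and dim probes, slide and replicate blocks, the prior, the thresholds, the probe rule and leaving out each array. Not every gene of the regulator list is reported here.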

Additional observations from a re-analysis of the deposited data

Results flagged for a closer look

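In 5 of 62 groups of 4 arrays 1 array stood apart from the other 3, where chance gives about 1 in 20 groups, or 3.1. The measure is the gap to the nearest array as a share of the whole range. It was 0.977 for Mmp3 in 3M, where 3M-1 read 6.20 and the others 5.38 to 5.40, all of them not well above background. It was 0.876 for Mmp7 in 3M, where 3M-1 read 7.43 and the others 6.92 to 6.98. The mean of the pericyte and smooth muscle markers in 3M gave 0.877, with 3M-1 at -0.16 and the others at 0.02 to 0.05. Adamts4 in 29M gave 0.831, with 29M-2 at 11.46 and the others at 11.33 to 11.35, and Adamts5 in 29M gave 0.874, with 29M-1 at 6.24 and the others at 6.09 to 6.11.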

How the results depend on the processing

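Of 356 values of the 20 named genes under the alternatives, 319 kept their direction and their side of the thresholds, 21 lost a call, 3 gained one and 13 changed direction. The count of genes called higher (2) became 1 on processed signals scaled to the 75th percentile (Mmp3), 1 with probes above background only (Timp1), 0 with slide as a fixed block and 0 at an adjusted p under 0.05. Leaving out 1 array gave 0 to 3 higher genes, 0 without 3M-2, 3M-3, 3M-4, 29M-1, 29M-2 or 29M-3. The count called lower (1) became 0 after normexp and quantile normalization, 0 with a replicate block (Mmp7 at -0.65, adjusted p = 0.134) and 0 at an adjusted p under 0.05. Leaving out 1 array gave 0 to 3 lower genes. Over all genes the 356 higher and 169 lower calls became 223 and 106 at an adjusted p under 0.05, and 188 to 584 higher and 82 to 332 lower with 1 array left out. The labels do not say whether the replicate numbers pair the samples. Same-numbered arrays correlated in their deviations by -0.26, 0.22, -0.25 and 0.08. These values cannot decide it, since only 3M-2 and 29M-2 shared both a number and a slide. The replicate block called 199 genes higher (Mmp3 and Timp1 among them) and 93 lower. Directions turned for Adamts1 to 0.025 on scaled processed signals, to 0.035 when these were variance stabilised instead, and over a range of -0.089 to 0.059 with 1 array left out. Mmp14 turned to -0.043 and -0.028 on the same signals, to -0.00021 after quantile normalization, and ranged from -0.068 to 0.15 with 1 array left out. Timp2 turned to 0.093 as the mean of its probes, and Timp4 ranged from -0.12 to 0.024 with 1 array left out. Where values moved, the cause was not tested. Dim probes limit what can be read from 15 of the 48 genes, which were not above background on every array of either group.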
